A study of Homo sapiens with 16 samples.

Results

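The subject is the response of MM.1S cells to UNC0638 alone, read across genes. MM.1S is an established human multiple myeloma line, a cancer of plasma cells, the antibody-secreting end stage of the B lineage. The samples were chosen by their labels: 2 arrays of MM.1S cells given UNC0638 at 1 µM for 6 days and 2 given DMSO, the solvent. They are 4 of the 16 arrays of the series. The labels give no time for DMSO. The other 12 arrays hold MM.1S cells given GSK126 at 1 µM or both inhibitors together, and the 4 matching treatments of RPMI-8226, another myeloma line. Each treatment had 2 replicates, and the labels name no difference between the 2 groups compared but the added compound.

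UNC0638 inhibits G9a, the product of EHMT2, and its partner GLP, the product of EHMT1, which place mono- and dimethyl marks on lysine 9 of histone H3 (H3K9). These marks are found at silent genes inside euchromatin and help to keep them silent, and the heterochromatin proteins of the CBX family read the methylated lysine. GSK126 inhibits EZH2, the enzyme of Polycomb repressive complex 2 (PRC2) that trimethylates lysine 27 of the same histone (H3K27), a second silencing mark. Plasma cells arise from B cells by switching on the factors IRF4, PRDM1 and XBP1 and by switching off most B cell genes, and myeloma cells depend on IRF4, which drives MYC.

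RNA was labelled with a single dye and read on 1-colour microarrays, so a value is the brightness of a probe. The normalised level of a probe is the log2 of its intensity after the array's own 75th percentile was taken off on that scale. Levels of different probes are not comparable, and a log2 difference is the mean of the 2 UNC0638 arrays minus the mean of the 2 DMSO arrays. Probes had to stand well above background on each array of UNC0638 or on each of DMSO to be kept, which left 24197 probes of 50599 on the array, and 20561 of these carried a symbol of 14903 genes. Of the kept probes, 22327 were well above background on all 4 arrays. A probe was called, and a gene is said to have risen or fallen, when limma's adjusted p was under 0.05. Values of a gene on the arrays are given in the order DMSO replicates 1 and 2, then UNC0638 replicates 1 and 2, and differences as log2 ± standard error (SE) with n = 2 a group. Where a count of calls moved by more than 1.5 times when 1 array was left out, the counts without each of the 4 follow it in that order. On the 4 arrays 49.9% to 52.8% of the spots were well above background and the 75th percentile of the intensities lay between 431 and 477. Both MM.1S groups lay on 1 slide and in 1 scan, with each treatment in its own column of the slide, so a column and a treatment cannot be told apart. The study describes the replicates as biological and the labels only number them, so the p-values cover the spread among these arrays, which may be technical.

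The labelled cell type was checked against marker genes. All 10 plasma cell markers, among them SDC1 (syndecan 1), TNFRSF17 (BCMA), XBP1, MZB1 and JCHAIN, were well above background on all 4 arrays, and the sum of their linear levels was 648 and 662 with DMSO and 581 and 534 with UNC0638. Of the B cell markers CD79A was above background, and PAX5, MS4A1 and CD22 were not on any of the 4. CSF1R, MPO and CD163, markers of myeloid cells, were not above background on any array, and CD14 was. LCK, ALAS2, GATA1, EPB42 and COL1A1 were below background on all 4 arrays. CD3E was above background with UNC0638 and not with DMSO, and the reverse held for EPCAM.

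The response was wide and mostly small. Limma called 13.3% of the probes higher with UNC0638 (3214 probes) and 17.9% lower (4323 probes), 31.1% in all. By gene, taking the brightest probe of each, the shares were 14.5% higher (2157 genes), 18.5% lower (2761 genes) and 33.0% together. These are the shares against which every count of a gene list below is to be read. A called rise had a median of 1.70-fold and a called fall of 1.43-fold, and 61.9% of the called falls were under 1.5-fold, against 34.0% of the called rises. Past 2-fold, with no test, the rises outnumbered the falls, with 5.18% of the probes (1253) against 1.82% (440), and by gene 5.33% (795) against 1.81% (270). Of the 1253 probes past 2-fold higher, 482 did not stand well above background in either DMSO sample, so that their fitted difference is not a measured fold and being kept required them to be higher with UNC0638. The standard deviation (SD) of the log2 difference over all kept probes was 0.61, and 0.21 is what the spread between replicates would produce on its own. Both UNC0638 arrays lay above both DMSO arrays at 28.8% of the probes and below both at 41.7%.

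The balance of rises and falls rests on the scaling. Of the calls 42.6% were rises under the 75th percentile, and 55.7% (3822 higher and 3040 lower) when that percentile was taken over the probes detected on all 8 MM.1S arrays, a change that moved the median log2 difference of all kept probes from -0.07 to -0.00075. With quantile normalization 51.6% were rises. The total also rested on single arrays, and fell from 3214 and 4323 to 1776 and 1759 without UNC0638 replicate 2, to 1808 and 2115 without UNC0638 replicate 1, to 1981 and 1728 without DMSO replicate 1 and to 2018 and 1930 without DMSO replicate 2.

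**Figure D1:**
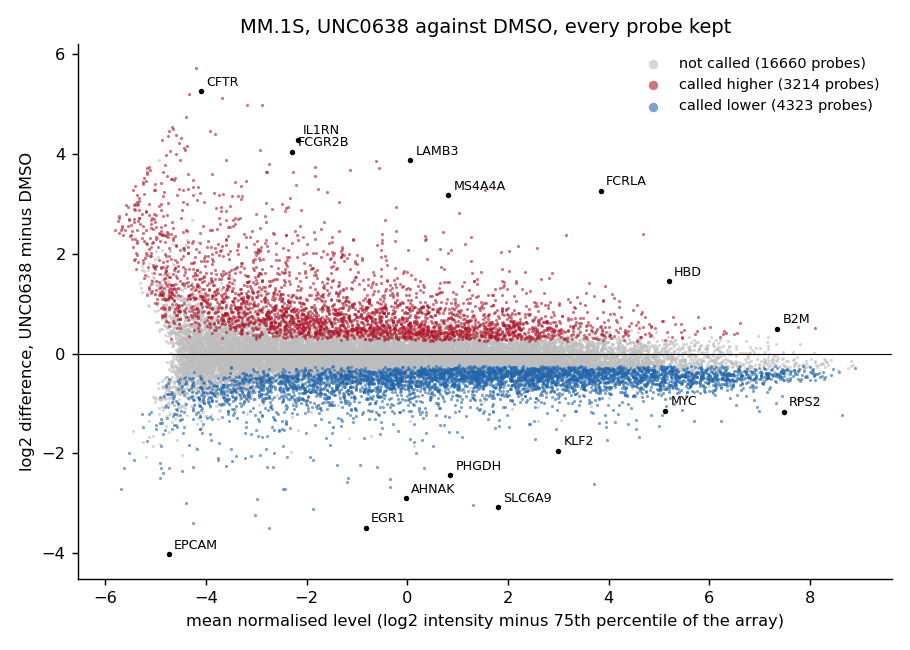
Log2 difference between UNC0638 and DMSO in MM.1S (vertical axis) against the mean normalised log2 level of the 4 arrays (horizontal axis), 1 point for each of the 24197 kept probes, coloured by limma's call. More points lie past 1 log2 unit above 0 (1253) than below it (440), and the small called differences near 0 are mostly falls, 4323 against 3214 rises over all sizes.

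The drug's own targets come first. EHMT2, the gene of G9a, was not called, with normalised levels of 0.56, 0.41, 0.21 and 0.28 and a log2 difference of -0.24 ± 0.10 (95% interval -0.48 to 0.01). EHMT1, the gene of GLP, had a difference of -0.01 ± 0.07 (-0.18 to 0.16), and WIZ, the zinc finger protein that joins the pair, 0.03 ± 0.10. The compound blocks the enzyme and not its transcription, and these arrays do not measure H3K9 methylation. Of the 15 H3K9 methyltransferases and readers measured, 7 had a difference above 0. Their median was -0.006, where that of all genes was -0.07, so the list as a whole did not fall. Of the 15, 5 were called lower and 0 higher (33.3% and 0%, against 18.5% and 14.5% of all genes). They were SUV39H1 (-0.59 ± 0.08, adjusted p = 0.0046) and SUV39H2 (-0.45 ± 0.11), which write trimethyl H3K9, the reader CBX3 (-0.46 ± 0.09), TRIM28 (-0.54 ± 0.11), the KRAB co-repressor, and UHRF1 (-0.57 ± 0.12), which links H3K9 methylation to DNA methylation. The falls were 1, 3, 2 and 1 with 1 array left out, and 2 with quantile normalization. TRIM28 was not called with any 1 of the 4 arrays left out, nor SUV39H2, CBX3, UHRF1 and RBBP4 without at least 1 of them. Among 11 H3K9 demethylases KDM4C alone was called, higher by 0.55 ± 0.09 (p adjusted by limma, 0.0086). Of 11 PRC2 genes MTF2 (-0.47 ± 0.08) and RBBP4 (-0.44 ± 0.13) were called lower, and 1, 1, 1 and 2 such calls were made with 1 array left out. The share of PRC2 genes called lower was 18.2%, against 18.5% of all genes. EZH2 read 3.75, 3.74, 3.25 and 3.26, so that its groups did not overlap, and its difference of -0.49 ± 0.18 was not called (adjusted p = 0.08).

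The 10 symbols with the largest rises among probes measured on all 4 arrays included receptors of immune cells, a cytokine antagonist and an epithelial laminin. IL1RN, which encodes the antagonist of the interleukin-1 receptor (probe at chr2:113891531-113891590 of GRCh37), read -4.38, -4.25, -0.15 and 0.09. The treated arrays lay far above both controls, and the rise of 4.28 ± 0.23 corresponded to 19.5-fold (adjusted p = 4.1e-04). FCGR2B, the inhibitory Fc receptor of B cells, read -4.36, -4.25, -0.41 and -0.11 and rose by 4.04 ± 0.11, 16.5-fold. LAMB3, a chain of the basement membrane, read -1.77, -1.99, 2.08 and 1.92 and rose by 3.88 ± 0.25. CEACAM1, an adhesion receptor with inhibitory motifs, read -2.41, -2.69, 1.15 and 1.47 and rose by 3.86 ± 0.16. In these 4 genes the replicates of a group lay close together. That the groups did not overlap was required for a gene to enter the 10 largest, and it held at every called probe.

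HSD11B1 encodes the enzyme that regenerates active glucocorticoid from cortisone. Its levels were -2.43, -2.41, 1.49 and 1.11 and its rise 3.71 ± 0.25. HBBP1, a pseudogene in the β-globin cluster, read -3.03, -2.91, 0.71 and 0.69, and 2 coding genes of that cluster on chromosome 11 also rose, HBD by 1.45 ± 0.08 (from 4.42 and 4.52 to 5.91 and 5.93) and HBB by 1.07 ± 0.08. Globin genes are near-identical in part, so these probes may share signal. ZG16B, a secreted lectin-like protein, rose by 3.74 ± 0.29, CYRIA by 3.39 ± 0.10, and OGDHL, a relative of the 2-oxoglutarate dehydrogenase, by 3.29 ± 0.16. The last of them, FCRL5, is described with its family below. All 10 of these calls were kept when any 1 of the 4 arrays was left out.

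**Figure D2:**
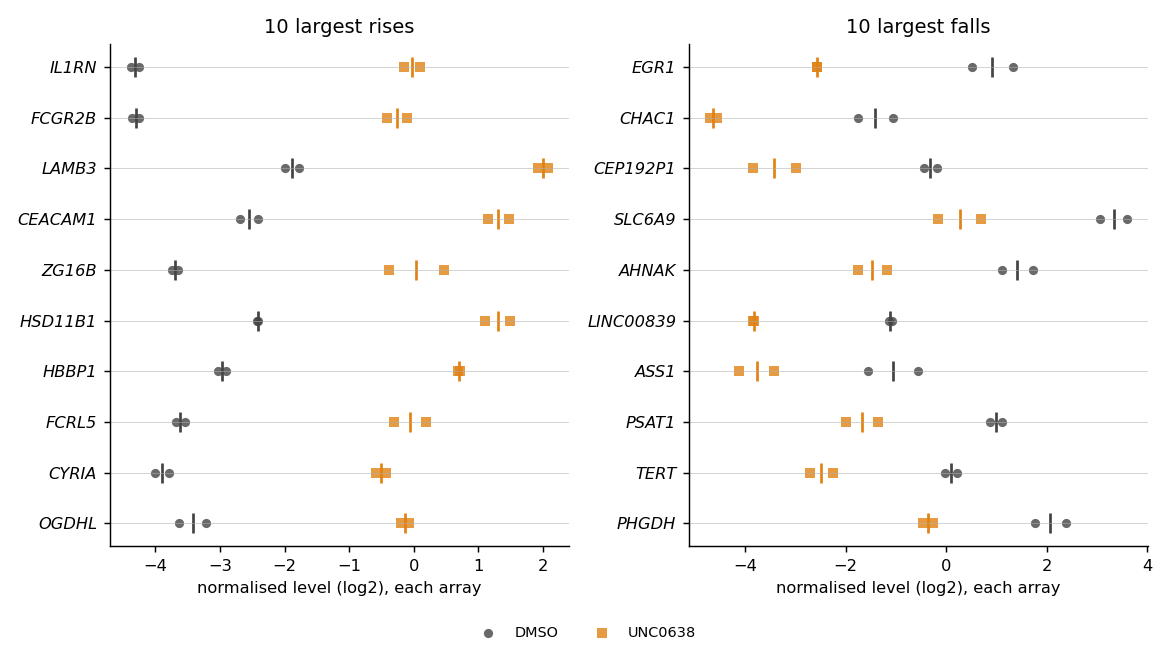
Normalised log2 level on each array (points) and group mean (vertical ticks) for the 10 symbols with the largest called rises (left) and falls (right) among probes well above background on all 4 arrays. DMSO arrays are dark circles and UNC0638 arrays orange squares. The groups do not overlap in any row because the choice of these symbols required it.

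The largest falls were led by EGR1, an immediate early transcription factor, and by genes of amino acid metabolism. EGR1 (probe at chr5:137804891-137804950) read 1.33, 0.51, -2.56 and -2.58 and fell by 3.49 ± 0.54 on the log2 scale (adjusted p = 0.0069). Its DMSO arrays lay apart, while the treated arrays were nearly equal and far below both. SLC6A9, a glycine transporter, read 3.07, 3.61, 0.69 and -0.16, a fall of 3.07 ± 0.43. AHNAK, a very large scaffold protein, went from 1.72 and 1.11 to -1.18 and -1.76. TERT, the catalytic subunit of telomerase, went from 0.21 and -0.02 to -2.26 and -2.71, a fall of 2.58 ± 0.16 (adjusted p = 5.6e-04). LINC00839, a long noncoding RNA, fell from -1.09 and -1.14 to -3.84 and -3.82, and CEP192P1, a pseudogene, from -0.18 and -0.45 to -2.99 and -3.86. CHAC1, ASS1, PSAT1 and PHGDH, the other four, are taken up with their pathways. The call of CHAC1 by this dimmer probe was lost without any 1 of the 4 arrays, and that of ASS1 without at least 1.

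For probes that neither array of a group read well above background, the fold has only a lower bound. For it the dim arrays are set to the lowest signal that counted as well above background, or to the probe's signal where that was higher, and the brighter group's mean is divided by theirs. By this bound CFTR, the chloride channel, was at least 9.96-fold higher with UNC0638, with levels of -1.48 and -1.45 where DMSO read -6.90 and -6.56. UBD, a ubiquitin-like protein induced by cytokines, was at least 8.95-fold higher and SHISAL2A at least 14.8-fold. In the other direction EPCAM, an epithelial adhesion molecule, was at least 4.20-fold lower, from -2.97 and -2.49 to -6.88 and -6.62. DLX6, a homeobox factor, was at least 2.82-fold lower. DLX6 was not called without at least 1 of the 4 arrays.

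Genes that B cells express and plasma cells silence made up 1 of the main groups of rises. Of 46 B cell genes found on the array, 35 were kept, and 22 of those were called higher (62.9% against 14.5% of all genes) and 0 lower. Since 6 had passed only through the UNC0638 arrays, the count over the 29 measured on all 4 arrays stands beside it, 17 higher and 0 lower, with a median log2 difference of 0.54 where that of all genes so measured was -0.08. The Fc receptor-like family, surface receptors of B cells on chromosome 1, held the largest of these rises. FCRLA was already well measured with DMSO and went from 2.35 and 2.07 to 5.50 and 5.45, a rise of 3.26 ± 0.11 or 9.60-fold (adjusted p = 1.4e-04). FCRL5 (probe at chr1:157483238-157483297), which myeloma cells can also carry, went from -3.55 and -3.68 to -0.31 and 0.19, and a second probe of it was at least 17.1-fold higher. FCRL2 was at least 12.6-fold, FCRL1 at least 4.70-fold and FCRL3 at least 1.92-fold higher. BCL6, the repressor of the germinal centre that opposes PRDM1, was at least 6.36-fold higher, with -2.24 and -1.85 on the treated arrays. PAX5 and CD22, which help to define the B cell stage, stayed below background on all 4 arrays.

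Genes named for other blood lineages rose as well. Of 19 kept myeloid genes out of 33 found, 14 were called higher and 0 lower, and of the 17 measured on all 4 arrays 13 and 0. MS4A4A, a membrane protein of macrophages, went from -0.59 and -0.95 to 2.24 and 2.57, a rise of 3.18 ± 0.25. The chemokine receptor CCR2 went from -0.46 and -0.29 to 2.37 and 2.51. CYBB, the catalytic subunit of the phagocyte NADPH oxidase, went from -0.60 and -0.43 to 1.91 and 1.94. ITGAM, the integrin CD11b, rose by 2.34 ± 0.14, and TREM1, an activating receptor, by 2.07 ± 0.33. Of the 4 myeloid markers with a probe, CSF1R, MPO and CD163 were below background on every array. CD14 was above it on all 4, at -2.99, -2.89, -3.21 and -3.17. The markers summed to between 0.14 and 0.16 on each array, and CD14 made up most of that sum. Of 15 kept T and NK cell genes, 8 were called higher and 1, CD4 (-0.45 ± 0.09), lower, and of the 12 measured on all 4 arrays 6 and 1, with a median of 0.50. CD2, an adhesion receptor of T cells, went from -3.24 and -2.96 to -1.12 and -0.67. The granzyme gene GZMH rose by 3.12 ± 0.21 and TIGIT, an inhibitory receptor, by 1.31 ± 0.15. IL7R, the interleukin-7 receptor chain, was at least 2.97-fold and CD3E at least 4.10-fold higher. LCK was below background throughout, and the sum of the 5 T and NK markers was 0.73 to 0.79 with DMSO and 1.11 to 1.17 with UNC0638. The part of other cells in these rises was not tested. CD4 was not called with any 1 of the 4 arrays left out. Of 10 kept erythroid genes 2 rose and 2 fell (0, 1, 0 and 1 with 1 array left out), and of 5 epithelial and fibroblast genes EPCAM alone was called. The erythroid shares were 20% each way, against 14.5% higher and 18.5% lower of all genes. In bulk samples more or fewer cells of a type and more or less RNA per cell cannot be told apart.

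The MHC class II genes, which encode the chains that present antigen to helper T cells, were mostly higher. Of 18 kept, all measured on all 4 arrays, 12 were called higher and 1 lower (66.7% and 5.56%), with a median log2 difference of 1.10. With all 16 arrays in 1 fit 4 of them were called higher. HLA-DRB1 read 1.69, 1.35, 3.66 and 3.60. The treated pair lay clear of the controls, and the rise was 2.11 ± 0.15, 4.31-fold (adjusted p = 8.8e-04). Probes for HLA-DRB4 and HLA-DRB5 rose by 2.09 ± 0.17 and 2.08 ± 0.17, and because these genes are near-identical to HLA-DRB1, and each person carries only some of them, the probes may read each other's transcript. HLA-DOB, the B cell partner that restrains peptide loading, went from 1.01 and 1.00 to 3.06 and 3.05, and HLA-DQB1 from -1.67 and -2.03 to 0.12 and 0.00. CIITA, the coactivator that switches this gene family on, was not called, with levels of 0.60, 0.40, 0.62 and 0.50 and a difference of 0.06 ± 0.19 (95% interval -0.39 to 0.51; CIITA was picked out after its values were seen). RFXANK, a subunit of the factor that recruits CIITA, was called lower, by 0.43 ± 0.08. In the MHC class I list 6 of 22 genes rose and 3 fell (27.3% and 13.6%, against 14.5% and 18.5% of all genes). TAP1, the peptide transporter, rose by 0.51 ± 0.09 and B2M, the invariant light chain, by 0.50 ± 0.09, while the chaperone CALR fell, by 0.73 ± 0.09. The rises were 2, 1, 2 and 1 and the falls 1, 2, 1 and 1 with 1 array left out. RFXANK was not called with any 1 of the 4 arrays left out, nor B2M without at least 1 of them.

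Type I interferon signalling passes from the IFNAR1 and IFNAR2 receptor through JAK1 and TYK2 to a complex that holds IRF9 and binds the interferon-stimulated response element (ISRE) of its target genes. Of 72 kept genes of the pathway 40 were called higher and 2 lower (55.6% and 2.78%), with a median of 0.43. Over the 66 measured on all 4 arrays the counts were 35 and 2. The study chose this pathway on these arrays, so its direction is not independent evidence. Leaving out 1 array gave 26, 29, 32 and 24 rises, and 1, 2, 2 and 1 falls.

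At the level of the complex, IRF9 read -0.81, -0.86, 0.20 and 0.38 and rose by 1.13 ± 0.09 (adjusted p = 0.0012). The receptor chain IFNAR2 fell, by 0.61 ± 0.11. Among the effectors IFIT1, which binds foreign RNA ends, read -4.44, -3.54, -1.14 and -0.83 and rose by 3.01 ± 0.33, 8.04-fold. XAF1, a pro-apoptotic protein, went from -4.47 and -6.30 to -0.50 and -0.29, with 1 DMSO array below background. IFI44L was at least 5.18-fold higher, the antiviral enzyme RSAD2 (viperin) at least 5.23-fold and TRIM22 at least 2.77-fold. The ubiquitin-like modifier ISG15 read 0.62, 0.59, 1.48 and 1.75, a rise of 1.01 ± 0.16. OAS3, a sensor of double-stranded RNA, rose by 1.05 ± 0.25 and IFI6 by 0.92 ± 0.22. LY6E was the largest fall of the list, from -0.48 and -0.56 to -1.59 and -1.90. IFI6 was not called with any 1 of the 4 arrays left out, nor IFNAR2 and OAS3 without at least 1 of them.

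The ISRE letters GAAA, any pair of bases, then GAAA were searched on both strands in promoters of the RefSeq table (GRCh38.p14), each holding 250 bases before and 50 after the start. A promoter was found for 31 of the 40 genes that rose, and 20 of them held the letters (64.5%), as did 11 of 25 list members that were not called (44.0%). Of all 27305 promoters 3.65% held them, of all kept genes 2.95%, and of all genes called higher 5.02%. The presence of the letters is a description and not evidence of binding. The stretches below are those of 4 genes named above, because they show, at genes that rose, the element by which the pathway is known. They are written 5′ to 3′ on the strand of the gene, and all end before the start. In each, 1 match, the nearest before the start, is in capitals, which run in reverse complement where it is on the other strand. Each of these promoters held 2 matches. In IFIT1 and ISG15 the second also lies in the stretch, wholly or partly in lower case.
IFI44L: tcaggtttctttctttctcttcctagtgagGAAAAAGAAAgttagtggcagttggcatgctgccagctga
IFIT1: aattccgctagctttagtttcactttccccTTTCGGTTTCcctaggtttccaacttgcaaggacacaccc
ISG15: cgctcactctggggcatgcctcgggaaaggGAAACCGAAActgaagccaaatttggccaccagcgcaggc
OAS3: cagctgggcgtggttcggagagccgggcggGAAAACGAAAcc
The IFI44L stretch lies at chr1:78620345-78620414 (+ strand), that of IFIT1 at chr10:89392490-89392559 (+ strand), that of ISG15 at chr1:1013360-1013429 (+ strand) and that of OAS3 at chr12:112938432-112938473 (+ strand). The matches in capitals of IFI44L, IFIT1 and OAS3 start 73, 103 and 12 bases before the start of the gene. None of 9 promoters of MHC class II genes that rose held these letters.

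The factors that hold the myeloma state fell. IRF4 read 4.21, 4.14, 3.59 and 3.35 and fell by 0.70 ± 0.12 (adjusted p = 0.0093). MYC, a transcription factor of growth that IRF4 drives in myeloma, read 5.80, 5.59, 4.66 and 4.43 and fell by 1.15 ± 0.12, 2.21-fold (adjusted p = 0.0023). KLF2, a transcription factor of lymphocyte quiescence, read 4.07, 3.87, 2.10 and 1.94 and fell by 1.95 ± 0.12, 3.86-fold (adjusted p = 5.1e-04). PRDM1, which directs the plasma cell programme, fell by 0.40 ± 0.11. In each of these 4 genes both treated arrays lay below both controls, as at every probe called lower. The study chose these genes on these samples, so their direction is not independent evidence. IRF4, PRDM1 and MXI1 were not called without at least 1 of the 4 arrays. The rest of the MYC network moved little: of 11 kept genes MXD4, which competes with MYC for MAX, rose by 0.79 ± 0.12, and MXI1, of the same subfamily, fell by 0.71 ± 0.15, while MAX had a difference of -0.03 ± 0.09. The 1 fall was called 1, 0, 0 and 1 times with 1 array left out. The letters to which MYC and MAX bind, CACGTG, were in the promoter of 10.4% of all genes called lower, of 10.0% of those called higher and of 10.0% of all kept genes.

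Of 19 kept genes of plasma cell identity 6 fell and 3 rose. That is 31.6% and 15.8%, against 18.5% and 14.5% of all genes, so the rises were near the general share. The median of -0.18 turned to 0.15 with quantile normalization. GPRC5D, a surface receptor that myeloma therapies target, read 3.11, 3.15, 1.74 and 1.71 and fell by 1.40 ± 0.15. CD38, another target antigen, read 1.51, 1.38, 0.60 and 0.57 and fell by 0.86 ± 0.13. The cyclin CCND2 fell by 0.58 ± 0.13, and SLAMF7 by 0.40 ± 0.09. Beside FCRL5, the 2 that rose were MAF, the transcription factor that a translocation overexpresses in this line (0.74 ± 0.17), and the costimulatory receptor CD28 (0.53 ± 0.09). There were 2, 3, 4 and 2 falls and 2, 3, 2 and 1 rises with 1 array left out. SLAMF7 was not called with any 1 of the 4 arrays left out, nor CCND2, MAF and CD28 without at least 1 of them.

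Cells that run short of amino acids or load misfolded protein raise ATF4, a factor that turns on amino acid synthesis, amino acid transport and the enzymes that charge transfer RNA. In UNC0638-treated cells most of these genes were lower. In the core of the ATF4 response 14 of 21 kept genes fell and 1 rose (66.7% and 4.76%), with a median of -0.90. Leaving out 1 array gave 12, 8, 12 and 9 falls. CHAC1, which degrades glutathione, read 2.56, 3.08, 0.09 and -0.52 by its brightest probe and fell by 3.04 ± 0.37 (adjusted p = 0.0036). A dimmer probe of CHAC1 is the one counted among the 10 largest falls. CBS, which condenses homocysteine with serine, went from 1.31 and 1.64 to -0.27 and -1.38, with a wide gap between the treated arrays. CEBPB, a partner of ATF4 on DNA, went from 2.53 and 2.97 to 1.41 and 1.16 (adjusted p = 0.0033). JDP2, a basic leucine zipper repressor, fell by 2.04 ± 0.37 and PMAIP1, the BH3-only protein NOXA, by 1.24 ± 0.25. The 1 rise was VLDLR, a lipoprotein receptor, by 0.96 ± 0.08. CBS, JDP2 and PMAIP1 were not called without at least 1 of the 4 arrays.

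Among the enzymes of amino acid synthesis 12 of 18 kept genes fell and 1 rose. PSAT1, the aminotransferase of serine synthesis, read 4.76, 5.25, 2.62 and 2.19 by its brightest probe, not the one counted among the 10 largest falls, and fell by 2.60 ± 0.24, 6.08-fold (adjusted p = 0.0017). PHGDH, the first enzyme of that pathway (probe at chr1:120285529-120285588), read 1.77, 2.38, -0.27 and -0.46 and fell by 2.44 ± 0.30. Both replicates of both genes moved together, well beyond the spread between them. ASS1, which makes argininosuccinate for arginine synthesis, went from -1.56 and -0.56 to -3.42 and -4.13. Its replicates lay farther apart than those of PSAT1 or PHGDH. GPT2, which makes alanine, fell by 1.86 ± 0.22 and PYCR1, the last enzyme of proline synthesis, from 5.43 and 5.45 to 3.95 and 3.60. CPS1, which feeds ammonia to the urea cycle, rose by 1.52 ± 0.11. In serine, glycine and one-carbon metabolism 12 of 19 genes fell and 1, the glycine cleavage gene AMT (1.01 ± 0.11), rose. The mitochondrial folate enzymes MTHFD2 (-1.22 ± 0.09), SHMT2 (-1.22 ± 0.12), MTHFD1L (-1.16 ± 0.12) and ALDH1L2 (-1.84 ± 0.30) were among the falls. The falls of this list were 6, 9, 6 and 7 with 1 array left out. ASS1 was not called without at least 1 of the 4 arrays.

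Of 19 kept amino acid transporters 12 fell and 3 rose, with a median of -0.76. SLC7A5, the large neutral amino acid transporter, read 3.24, 3.54, 1.72 and 1.66 and fell by 1.70 ± 0.17. SLC7A11, the cystine transporter, read 0.71, 1.34, -0.55 and -0.94 and fell by 1.77 ± 0.24, and SLC1A5, the glutamine transporter, by 1.46 ± 0.22. The rises were SLC7A7 (0.90 ± 0.12), SLC43A2 (0.98 ± 0.25) and SLC7A6 (0.35 ± 0.09), and 1, 1, 2 and 1 rises were called with 1 array left out. SLC7A6 was not called with any 1 of the 4 arrays left out, nor SLC43A2 without at least 1 of them.

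The aminoacyl-tRNA synthetases divide by compartment. Of the 20 cytosolic enzymes 17 fell (85.0% against 18.5% of all genes), with a median of -0.62. GARS1 went from 2.93 and 3.35 to 1.78 and 1.71, YARS1 from 1.72 and 1.87 to 0.59 and 0.51, AARS1 from 1.66 and 1.93 to 0.77 and 0.67 and MARS1 from 4.42 and 4.60 to 3.42 and 3.54. CARS1 fell by 0.98 ± 0.17. The falls were 12, 11, 11 and 9 with 1 array left out and 11 with quantile normalization. Of the 17 mitochondrial enzymes, which charge the transfer RNAs of the mitochondrion, 6 fell, with a median of -0.25 (1, 3, 2 and 1 with 1 array left out). SARS2 (-0.80 ± 0.09) was the largest of these. The difference between the 2 groups of enzymes was not tested. CARS1 was not called without at least 1 of the 4 arrays.

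The element by which C/EBP and ATF factors act, TGATGNAA, was searched in the same promoters on both strands. Of the cytosolic synthetases that fell 14 had a promoter and 6 of these held it (42.9%), of the transporters that fell 3 of 10 and of the ATF4 core genes that fell 2 of 12. In synthesis and one-carbon genes that fell it was in 1 of 7 each. Of the genes that were not called it was in 2 of 3 for amino acid synthesis and 0 of 2 for the cytosolic synthetases, 0 of 4 for the transporters, 0 of 6 for the ATF4 core and 0 of 5 for one-carbon genes. Of all promoters 3.67% held it, and of all genes called lower 2.58%. The short window and the strict letters leave out many places at which such a factor could bind. Stretches of 4 genes that fell are shown because they come from 4 different arms of the response, again 5′ to 3′ on the strand of the gene with the match in capitals.
CHAC1: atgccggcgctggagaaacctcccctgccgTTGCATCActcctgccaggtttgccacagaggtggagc
MTHFD1L: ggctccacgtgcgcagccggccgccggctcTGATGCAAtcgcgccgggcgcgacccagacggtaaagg
AARS1: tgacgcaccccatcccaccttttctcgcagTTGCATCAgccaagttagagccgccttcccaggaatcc
ASNS: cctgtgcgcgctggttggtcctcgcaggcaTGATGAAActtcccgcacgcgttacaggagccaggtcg
In GRCh38.p14 they lie at chr15:40953232-40953299 (+ strand), chr6:150866327-150866394 (+ strand), chr16:70289656-70289723 (- strand) and chr7:97872439-97872506 (- strand). The matches start 209, 129, 187 and 68 bases before the starts. ASNS, asparagine synthetase, went from 5.52 and 5.80 to 4.69 and 4.54 and was named for its match after its values were seen.

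**Figure D3:**
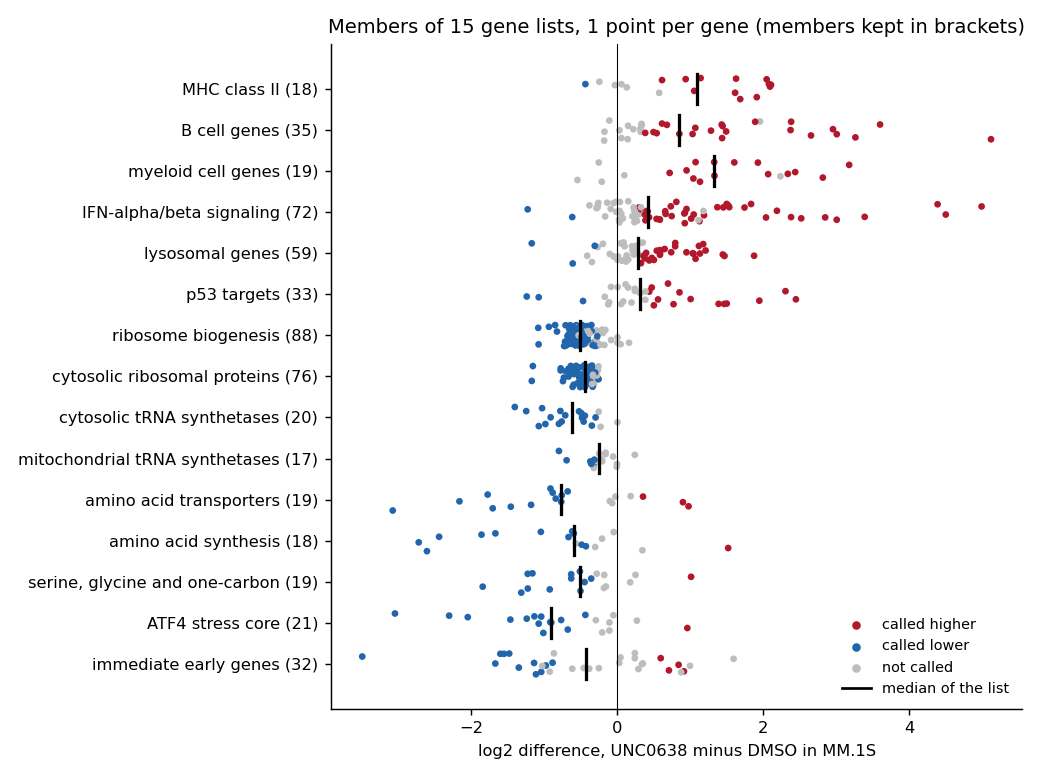
Log2 difference between UNC0638 and DMSO in MM.1S for each kept gene of the lists on the vertical axis, by the brightest probe, coloured by limma's call, with the median of a list as a black bar. The amino acid and synthetase lists lie mostly below 0 with a few large falls, the ribosomal lists form narrow groups near -0.5, and the MHC class II, B cell and myeloid lists lie mostly above 0.

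Immediate early genes, which growth signals switch on within minutes through serum response factor, also fell, though not as a whole. Of 32 kept 11 fell and 4 rose (34.4% and 12.5%). FOS read 2.41, 1.44, 0.17 and 0.36 and fell by 1.67 ± 0.31, and FOSB by 1.60 ± 0.48. The DMSO arrays of FOS lay apart, the lower still above both treated arrays. JUN read 0.67, 0.50, -0.88 and -1.04 and fell by 1.55 ± 0.25 (adjusted p = 0.0072), and CCN1, a matrix protein, by 1.48 ± 0.37. DUSP6 (0.84 ± 0.10), SPRED1 (0.92 ± 0.11), IER5 (0.60 ± 0.10) and KLF4 (0.71 ± 0.19) rose, the first pair being inhibitors of the ERK pathway. CCN1 and KLF4 were not called with any 1 of the 4 arrays left out, nor FOS and FOSB without at least 1 of them. The serum response factor site, the CArG box, was found in 1 of 9 promoters of the genes that fell. It was also in 1 of 11 promoters of list members that were not called, and in 1.29% of all promoters. Among the genes that fell the promoter is EGR1's, shown because it is the gene with the largest fall. It holds the site 2 times in the window, of which 1 is in capitals.
EGR1: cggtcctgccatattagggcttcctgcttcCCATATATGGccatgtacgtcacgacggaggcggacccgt
The stretch lies at chr5:138465366-138465435 (+ strand) of GRCh38.p14 on the strand of the gene, and the capitals start 83 bases before the start.

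Genes for making ribosomes fell in large numbers by small amounts. Of 88 ribosome biogenesis genes 65 fell and 0 rose (73.9%), with a median of -0.51. MYBBP1A, a nucleolar protein, went from 2.50 and 2.47 to 1.43 and 1.38, and the assembly factors NLE1 (-0.85 ± 0.10) and MRTO4 (-0.82 ± 0.14) fell too. With 1 array left out the count was 32, 43, 41 and 30. Of 76 cytosolic ribosomal protein genes 67 fell and 0 rose, with a median of -0.44 and every gene between -1.17 and -0.25. RPS2 read 8.05, 8.07, 6.92 and 6.87 and fell by 1.17 ± 0.08 (adjusted p = 6.2e-04), and RPL5 fell by 0.74 ± 0.07. With quantile normalization 10 were called lower and the median was -0.12. Leaving out 1 array gave 32, 38, 41 and 27 falls. MRTO4 was not called without at least 1 of the 4 arrays. Ribosomal protein genes have many processed pseudogenes, so probes may read more than 1 transcript.

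Of 66 genes of the G1/S transition 41 fell and 0 rose (62.1%), with a median of -0.41. CCND1, cyclin D1, read -2.51, -2.51, -3.83 and -3.95 and fell by 1.38 ± 0.09. CDK6 fell from 4.87 and 4.72 to 4.05 and 3.85, and the replication genes ORC1 (-0.91 ± 0.15) and CDC25A (-0.89 ± 0.17), the latter a phosphatase that starts S phase, fell as well. Of 48 genes of G2 and mitosis 21 fell and 0 rose, among them TRIP13 (-1.04 ± 0.11), MYBL2 (-0.83 ± 0.16), PLK1 (-0.63 ± 0.09) and CCNB1 (-0.60 ± 0.09). The falls with 1 array left out were 8, 10, 17 and 8 for G1/S and 3, 10, 4 and 5 for G2 and mitosis, and with quantile normalization 18 and 8. CDC25A and MYBL2 were not called without at least 1 of the 4 arrays. Of 64 histone genes 33 fell and 0 rose, with a median of -0.47, with 10, 3, 9 and 8 called when 1 array was left out and 10 with quantile normalization. H2AC6 is uncertain, since 1 of its probes was called lower and another higher.

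Chaperones and glycolysis followed the same direction. Of 27 heat shock and chaperone genes 18 fell and 1 rose, and of the 26 measured on all 4 arrays 18 and 0. FKBP4, a co-chaperone of HSP90, went from 2.89 and 2.80 to 1.88 and 1.89, HSPA4L fell by 1.13 ± 0.08 and BAG3 by 0.90 ± 0.14. The falls were 14, 10, 9 and 15 with 1 array left out and 9 with quantile normalization, and the rise was called 0, 0, 0 and 1 times. Of 22 glycolysis genes 13 fell and 0 rose, including HK2 (-0.93 ± 0.16), LDHA (-0.82 ± 0.15) and ENO1 (-0.62 ± 0.09). Of these 4, 7, 7 and 4 were called with 1 array left out and 4 with quantile normalization. In fatty acid synthesis 6 of 16 fell (5, 4, 4 and 3 with 1 array left out), among them FASN (-1.20 ± 0.19) and its regulator SREBF1 (-1.33 ± 0.38). In cholesterol synthesis 6 of 26 fell and 1 rose (23.1% and 3.85%), with SQLE the largest, from 1.11 and 0.70 to -0.67 and -0.95. With 1 array left out 1, 2, 1 and 2 fell and 1, 0, 0 and 0 rose. The unfolded protein response, a mark of secretory load in plasma cells, was at 4 lower and 2 higher of 31, below the shares of all genes (3, 2, 3 and 2 lower and 0, 1, 0 and 0 higher with 1 array left out). SREBF1 was not called with any 1 of the 4 arrays left out, nor LDHA without at least 1 of them.

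Lysosomal genes, p53 targets and FOXO targets had more rises than falls. Of 59 lysosomal genes 26 rose and 3 fell (44.1% and 5.08%), with a median of 0.28, and with 1 array left out 17, 18, 17 and 16 rose. HGSNAT, an enzyme of heparan sulfate breakdown, read 1.40, 1.48, 2.80 and 2.98 and rose by 1.45 ± 0.11. GAA, acid α-glucosidase, rose from -0.32 and -0.55 to 0.84 and 0.71, and the cathepsins CTSZ by 1.47 ± 0.17 and CTSH by 1.18 ± 0.10. PPT2, a thioesterase, fell by 1.17 ± 0.15, and TPP1 is uncertain because its probes were called in opposite directions.

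Of 33 kept p53 target genes 14 rose and 3 fell (42.4% and 9.09%). ZMAT3, an RNA-binding p53 target, read -4.18, -4.43, -1.92 and -1.79 and rose by 2.45 ± 0.12 (adjusted p = 3.3e-04). PLK2, a kinase, read -0.75, -0.79, 1.45 and 1.62 and rose by 2.31 ± 0.14. TP53I11 rose by 1.95 ± 0.11, the decoy receptor TNFRSF10D by 1.47 ± 0.17, and EDA2R, a death receptor, went from -1.51 and -1.56 to 0.01 and -0.09. The falls were PMAIP1, SESN2 (-1.07 ± 0.18) and PERP (-0.47 ± 0.11), of which PMAIP1 and SESN2 also stand in the ATF4 list (1, 1, 2 and 2 falls with 1 array left out). CDKN1A, the cell cycle inhibitor that p53 is best known for, was not called, with levels of -2.93, -2.44, -2.70 and -3.01 and a difference of -0.17 ± 0.21 (95% interval -0.67 to 0.33; it was picked out after its values were seen). Of 22 kept FOXO targets 11 rose and 3 fell, and of the 20 measured on all 4 arrays 9 and 3. BMF, a pro-apoptotic BH3-only protein, went from 1.16 and 1.51 to 2.49 and 2.75. The adaptor IRS1 rose by 1.22 ± 0.19, and with 1 array left out 6, 8, 8 and 6 rises and 1, 1, 1 and 2 falls were called. In the BCL2 family of 17 the 3 rises were BMF, BCL2L2 (1.15 ± 0.20) and BAX (0.44 ± 0.12), and the 5 falls included PMAIP1 and HRK, the latter at least 2.19-fold lower. Of the 17, 17.6% rose and 29.4% fell, against 14.5% and 18.5% of all genes. Of the 16 family members measured on all 4 arrays 3 rose and 4 fell. In this family 1, 3, 2 and 2 rose and 0, 0, 3 and 2 fell with 1 array left out. PERP and BAX were not called with any 1 of the 4 arrays left out, nor BCL2L2 and HRK without at least 1 of them.

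Zinc finger genes were described by place, since most KRAB zinc finger repressors lie in clusters on chromosome 19 that carry H3K9 methylation. Of 187 kept ZNF genes of chromosome 19, 65 fell and 3 rose (34.8% and 1.60%), with a median of -0.30. Of 212 on other chromosomes 30 fell and 30 rose (14.2% each), with a median of -0.06. ZNF529 read -1.94, -2.16, -3.79 and -3.66 and fell by 1.67 ± 0.13 (adjusted p = 9.9e-04). ZNF426 fell by 1.48 ± 0.17 and ZNF264 by 1.33 ± 0.12. Off that chromosome ZNF608 rose from -4.46 and -4.05 to -2.61 and -2.46 and ZNF462 from -1.33 and -1.46 to 0.00 and -0.01. With 1 array left out the falls on chromosome 19 were 33, 36, 35 and 38 and the rises 1, 0, 1 and 1, and on the others the falls were 15, 18, 17 and 13 and the rises 14, 16, 15 and 9. The chromosome 19 list was formed after such a difference had been seen in these data, and the difference between the 2 lists was not tested.

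Small nucleolar RNAs, most of which are cut from introns of ribosomal and translation genes, were lower at 56 and higher at 4 of 236 kept. That is 23.7% and 1.69%, against 18.5% and 14.5% of all genes, so the share of falls was not far above the general one. Since 11 had passed only through the DMSO arrays, the 223 measured on all 4 arrays stand beside them, with 54 lower and 3 higher. SNORD65 went from -1.73 and -1.75 to -3.27 and -3.22 and SNORA50C fell by 1.42 ± 0.17, while SCARNA17 rose by 0.92 ± 0.10. Such probes may read the host intron as well as the mature RNA, and with 1 array left out 21, 38, 49 and 19 falls and 3, 3, 2 and 4 rises were called. Of 51 germline and cancer-testis genes found, 34 were not kept. Of the 17 kept, 4 rose and 7 fell (3, 2, 3 and 3 and 3, 4, 6 and 4 with 1 array left out). For these 17 genes that is 23.5% higher and 41.2% lower, against 14.5% and 18.5% of all genes. MAGEC3 rose, reading -2.02, -2.28, -0.12 and -0.18, and REC8, the meiotic cohesin, rose by 1.21 ± 0.09. ACTL8 fell by 2.24 ± 0.25 and TEX19 by 2.06 ± 0.34. Of 20 kept imprinted genes GRB10 (2.01 ± 0.11), SLC67A1 (1.04 ± 0.11) and L3MBTL1 (0.38 ± 0.09) rose, and MEST (-0.90 ± 0.10) and PEG10 (-0.33 ± 0.08) fell, with 1, 1, 1 and 1 falls called when 1 array was left out. For the imprinted genes that is 15% higher and 10% lower, against 14.5% and 18.5% of all genes. Clustered protocadherins, cell adhesion genes known to be silenced with H3K9 methylation, were mostly not kept, with 41 of 50 left out by the filter. Of the 9 kept 2 rose and 0 fell (22.2% and 0%, against 14.5% and 18.5% of all genes), with a median of 9.7e-05. Of the 8 measured on all 4 arrays 1 rose and 0 fell. The rises were PCDHA11, from -4.50 and -4.22 to -2.23 and -2.48, and PCDHB9, at least 3.02-fold higher. L3MBTL1 and PEG10 were not called with any 1 of the 4 arrays left out.

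**Figure D4:**
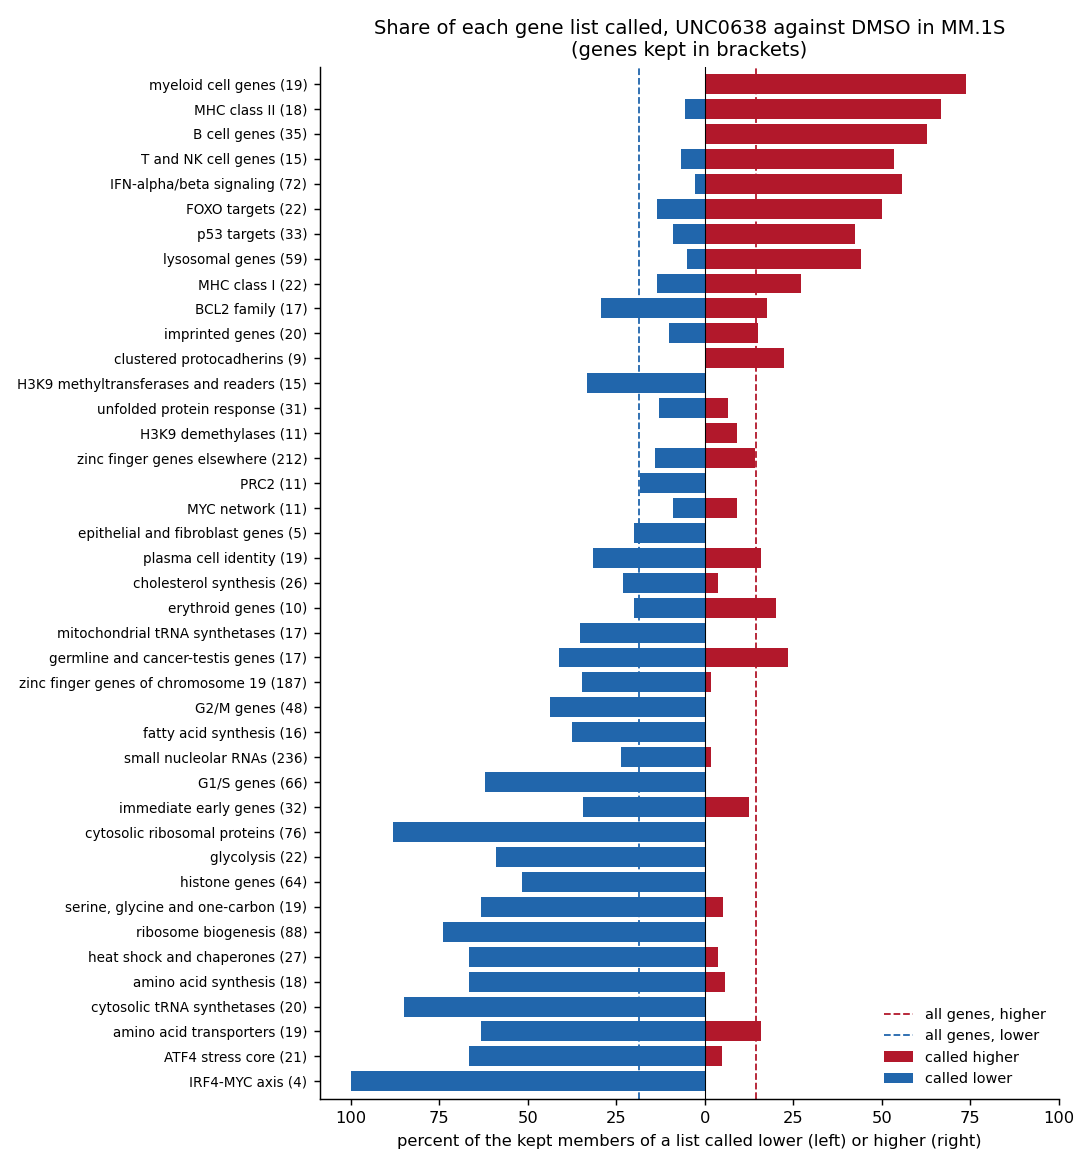
Percent of the kept genes of each of 41 lists called lower (bars to the left) and higher (bars to the right) with UNC0638 in MM.1S, sorted by the median log2 difference, with the number of genes kept in brackets. The dashed lines mark the shares over all genes, 18.5% lower and 14.5% higher.

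Set directly against GSK126 at the same dose and time in the same line, with the same n and SE as the contrast with DMSO, UNC0638 gave 6.56% of the genes higher (978) and 7.20% lower (1073). MHC class II and myeloid genes were higher with the G9a inhibitor than with the EZH2 inhibitor, at 11 of 18 and 13 of 17 of those measured on all 6 arrays of UNC0638, GSK126 and DMSO. On the same basis 10 of 29 B cell genes and 16 of 66 interferon genes were higher, against 6.04% of all genes so measured. LAMB3 was higher with UNC0638 by 2.97 (adjusted p = 0.0021) and HSD11B1 by 3.18. MYC was lower by 0.93 (adjusted p = 0.0074) and KLF2 by 1.26, while IRF4 differed by -0.24 and was not called (adjusted p = 0.24). CCND1 was lower by 2.49. For BCL6 (-0.39, adjusted p = 0.40), ISG15 (-0.04, 0.88) and CHAC1 (-0.32, 0.60) no difference between the inhibitors was called, which does not show that they acted alike. Of the cytosolic synthetases 0 of 20 were called in either direction. Of chromosome 19 zinc finger genes 38 of 175 so measured were lower with UNC0638 than with GSK126, and 25 of 61 histone genes, against 7.35% of all genes. Without UNC0638 replicate 2 this contrast gave 504 probes higher and 448 lower, without UNC0638 replicate 1 580 and 575, without GSK126 replicate 1 661 and 406, and without GSK126 replicate 2 716 and 522, against 1557 and 1576 with all arrays.

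The same compound was given to RPMI-8226 at the same dose. The difference of the responses was tested with an interaction term over the 16 arrays. Without 1 array of the 8 it rests on, the called probes ranged from 202 to 743 more positive and 86 to 727 more negative in MM.1S, against 469 and 304 with all, the highest without RPMI-8226 DMSO replicate 1 and the lowest without UNC0638 replicate 2 and DMSO replicate 1 of MM.1S. By gene it was called at 2.12% of the genes in favour of MM.1S (316 more positive) and at 1.24% in the negative direction (185). Cell line and slide cannot be told apart, but each response is measured within a slide. LAMB3 rose by 3.88 ± 0.25 in MM.1S and had -0.09 in RPMI-8226 (difference 3.97, adjusted p = 2.9e-04). Among amino acid genes PYCR1 had -0.10 in RPMI-8226 (difference -1.56, adjusted p = 0.0064), SLC7A11 had -0.04 and MTHFD2 -0.21. MYC had 0.05 in RPMI-8226, and the responses differed by -1.19 (adjusted p = 0.02). For KLF2, which read -0.98 and 0.26 with DMSO and -2.53 and -1.18 with UNC0638 in RPMI-8226, and for IRF4, with a difference of -0.43 there, no difference between the lines was called (adjusted p = 0.82 and 0.56). FCRLA had 4.03 in RPMI-8226, again with no difference called (0.78). SLAMF7 had -0.40 ± 0.09 in MM.1S, a call lost without any 1 of the 4 arrays, and 3.03 in RPMI-8226 (difference -3.43, adjusted p = 0.0054). JUN had 1.12 in RPMI-8226, against a fall in MM.1S (adjusted p of the difference, 0.0088). In the interferon list 12 of 72 responses were more positive in MM.1S, IFIT1 and ISG15 among them, and 0 more negative, against 2.12% and 1.24% of all genes. Of these 72, 6 had passed the filter only through the UNC0638 arrays of MM.1S, which favours a positive difference, and no count without them was made. The study chose this pathway on these arrays, so the count is not independent evidence.

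**Figure D5:**
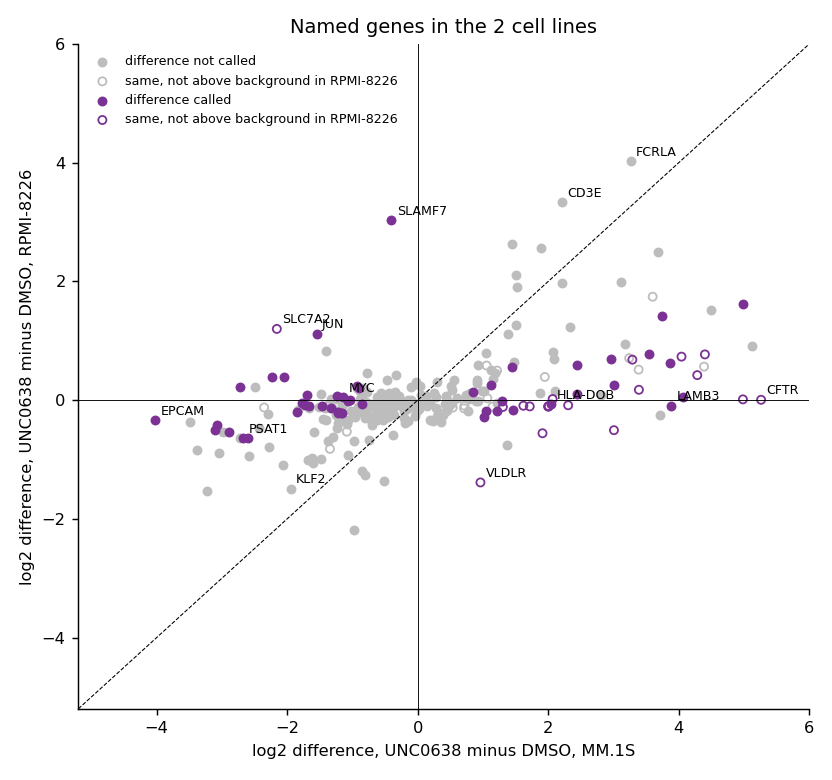
Log2 difference between UNC0638 and DMSO in MM.1S (horizontal axis) and RPMI-8226 (vertical axis) for the named genes, 1 point per probe. Purple marks a difference between the lines called by the interaction term, open circles mark probes below background on all 4 RPMI-8226 arrays, and the dashed line is equality. LAMB3 lies at 3.88 on the horizontal and -0.09 on the vertical axis, and SLAMF7 at -0.40 and 3.03.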

How the data were processed

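Expression was measured on 1-colour Agilent SurePrint arrays, of which 4 of 16 are the subject. The deposited files hold scanner intensity per spot from Feature Extraction 10.7 (per the file headers), which the authors read into Gene Spring GX. The normalization, filter and test used there are not given in the sources used here. The series table holds the same processed signal (99.9958% of 1007616 values equal) and served as an alternative.

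Intensity was taken to log2 and the 75th percentile of each array's 58717 non-control spots subtracted. Outlier spots (220 to 261 an array) were left out, spots of a probe averaged. No spot was saturated. limma 3.58.1 in R 4.3.3 fitted all 8 MM.1S arrays, with Benjamini-Hochberg adjustment over the kept probes. The contrast with RPMI-8226 used 16 arrays. Each gene was read by its brightest probe over the 8 arrays. Symbols of 18112 kept probes came from RefSeq accessions, 2475 of them newer than the file's. Probe positions are GRCh37 as in the files, and promoter sequences are RefSeq's, GRCh38.p14.

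Named genes are the 10 largest called rises and falls measured on all 4 arrays, the 5 largest bounds each way, up to 5 called members of each list in each direction, lists of up to 15 genes in full, and genes the study names, a few of which are not reported here. For the 10 largest, both UNC0638 arrays also had to lie beyond both DMSO arrays. The members and lists were chosen with earlier results of these data known. The fit was tested on simulated data. With 2 arrays a group, their number limits the precision. Alternatives were other normalizations, background corrections, filters, arrays in the fit, a replicate block, and each array left out.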

Additional observations from a re-analysis of the deposited data

Results flagged for a closer look

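These results are listed because the response to UNC0638 differed between MM.1S and RPMI-8226 by the interaction term of limma's fit over the 16 arrays (2 arrays a group). The number after a gene is the log2 response of MM.1S minus that of RPMI-8226, and the adjusted p-values ran from 0.00025 (SHISAL2A) to 0.0498 (LINC00839). Only probes of genes chosen for naming were looked at here, 66 of which are listed. Most were named for a call or a large change on the MM.1S arrays, which also enter this term. The choice thus favours differences in the direction of the MM.1S change, and the number listed is not evidence of a difference between the lines. Over all genes the term was called more positive in MM.1S at 2.12% and more negative at 1.24%. CFTR, UBD, EPCAM, XAF1 and other genes below background in a group have fitted values here and not measured folds.

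Among immune receptors and effectors the response was more positive in MM.1S for BCL6 (2.27), FCRL3 (3.51), FCRL5 (2.78 and 4.97), FCGR2B (3.31), CEACAM1 (3.24), IL1RN (3.86), TIGIT (1.42), TREM1 (2.05), CYBB (1.85), HLA-DOB (2.11) and HLA-DQB1 (2.47). In the interferon pathway this held for IFIT1 (2.76), IRF9 (0.87), ISG15 (1.29), TRIM22 (3.21) and XAF1 (3.37) and for the cytokine-induced UBD (3.63). Among lysosomal, p53 and FOXO genes it held for GAA (1.39), HGSNAT (0.89), PLK2 (2.39), TNFRSF10D (1.63), ZMAT3 (2.35) and BMF (1.29). Other genes in this direction were LAMB3 (3.97), CFTR (5.26), SHISAL2A (4.02), OGDHL (2.61), ZG16B (2.31), DUSP6 (0.70), VLDLR (2.35) and ZNF608 (1.82). Among imprinted, germline and protocadherin genes there were GRB10 (2.11), SLC67A1 (1.23), MAGEC3 (2.11), PCDHA11 (2.11) and PCDHB9 (1.71).

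In amino acid metabolism and transport the response was more negative in MM.1S for PSAT1 (-2.03 and -1.97), PYCR1 (-1.56), GPT2 (-1.65), MTHFD2 (-1.02), SHMT2 (-1.01), SLC6A9 (-2.66), SLC7A2 (-3.36), SLC7A5 (-1.79) and SLC7A11 (-1.73), and among the partners of ATF4 for CEBPB (-1.36) and JDP2 (-2.44). Growth and cell cycle genes in this direction were MYC (-1.19), JUN (-2.67), CDK6 (-0.78), TRIP13 (-1.04) and HK2 (-1.16), and ribosomal ones MYBBP1A (-1.06) and RPS2 (-0.96). In lipid metabolism there were SQLE (-1.64) and LPCAT3 (-1.30). The rest were ACTL8 (-2.62), AHNAK (-2.35), CEP192P1 (-2.61), EPCAM (-3.68), LINC00839 (-2.94), MEST (-1.10), SLAMF7 (-3.43) and ZNF264 (-1.21). PSAT1 and FCRL5 were each passed by both of their named probes.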

How the results depend on the processing

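Of 258 called probes of named genes none changed direction under any alternative, 153 stayed called whichever of the 4 arrays was left out, and 36 were lost with each of them. Calls were lost at 86 without DMSO replicate 1, 76 without DMSO replicate 2, 66 without UNC0638 replicate 1 and 80 without UNC0638 replicate 2. A group left with 1 array is assumed to vary like the others. Quantile normalization ended 36 of these calls, no filter 81 and a fit of all 16 arrays 52. Without a filter 2017 probes were called higher and 1774 lower (53.2% of calls rises, against 42.6%), and 2911 and 1004 lay past 2-fold. The fit of all 16 arrays called 1772 and 2571. With 1 array left out the calls ranged from 1776 to 3093 higher and 1728 to 4351 lower, for UNC0638 against GSK126 from 504 to 716 and 406 to 575, and for the difference between the lines from 202 to 743 more positive and 86 to 727 more negative. Past 2-fold there were 335 rises and 140 falls with normexp, 638 rises with probes measured on all 4 arrays, 2642 and 2133 past 1.5-fold and 564 and 96 past 3-fold. The cause of these shifts was not tested. The other alternatives gave counts over all probes within 1.5 times of those reported, which does not hold for every gene list: with only the 4 arrays the falls were 1 of the mitochondrial synthetases (against 6) and 2 of the BCL2 family (against 5), with the percentile over detected probes 25 of the G1/S genes (against 41), and with the intensity-dependent prior 9 immediate early genes rose (against 4), 7 with normexp.

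Replicate numbers mark rows of the slide, and deviations of same-numbered arrays correlated by 0.091 (DMSO and UNC0638) to 0.258, so the number was not taken to pair the arrays. With the replicate block 3738 probes were called higher and 5145 lower (7367 of the 7537 calls in both), against GSK126 2044 and 2230, and for the difference between the lines 825 and 706, against 469 and 304 without it. Under it 89 small nucleolar RNAs fell, against 56, and 7 immediate early genes rose.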
